A study of Homo sapiens with 18 samples.

Results

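The transcripts of 8 genes, those of A20, of proteins that act with or beside it and of other TNF-induced proteins, were followed in 3 chronic lymphocytic leukemia (CLL) cell lines before and after stimulation of Toll-like receptor 9 (TLR9). The genes were TNFAIP3, which encodes A20, the genes of its binding partners TNIP1, TNIP2, TNIP3 and TAX1BP1, the deubiquitinase gene CYLD, and TNFAIP8 and TNFAIP2. They were taken by symbol from a table of 56609 gene symbols, and 8 of 8 were among the 31872 genes with at least 10 reads summed over all libraries, which were tested. TNFAIP8 and TNFAIP2 share the letters TNFAIP with TNFAIP3 because TNF was found to induce them, and they belong to protein families other than that of A20.

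HG3, MEC2 and PCL12 are cell lines established from CLL, of which MEC2 carries mutated and the other lines carry unmutated IGHV genes. The study describes all 3 lines as positive for Epstein-Barr virus (EBV), so none of them stands for uninfected CLL cells. ODN-2006, a class B oligonucleotide with unmethylated CpG motifs that activates TLR9, was added at 2.5 μg/mL for 4 h, and the unstimulated cells were left without it. Each line had 3 CpG-stimulated and 3 unstimulated samples, so that 18 libraries formed 6 groups of 3 (HG3, MEC2 and PCL12, each CpG-stimulated and unstimulated). In each replicate series 1 stimulated sample had its own unstimulated control, but separate cultures are not stated, and p-values therefore measure the spread between these samples. The labels name no engineered allele in any group, and each IGHV class was represented by only 1 or 2 lines, so a difference between lines is not a difference between IGHV classes.

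A20 edits and removes ubiquitin chains on signaling proteins downstream of TNF receptors and TLRs and so restrains the kinases that release NF-κB. NF-κB in turn transcribes TNFAIP3, which makes A20 a classic feedback inhibitor, and TNFAIP3 is often inactivated in B cell lymphomas. The ABIN proteins (encoded by TNIP1, TNIP2 and TNIP3) bind A20 and ubiquitin chains, TAX1BP1 brings A20 to its substrates, and CYLD removes ubiquitin chains independently of A20.

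Library totals lay between 20382943 and 67308932 reads. Mitochondrial genes took 20.2% of the reads of unstimulated HG3 replicate 2 and 19.7% of those of CpG-stimulated MEC2 replicate 2, and 2.82% to 9.28% elsewhere. PCL12 replicates 2 and 3, in both treatments, held transcripts of 45 genes typical of MEC2 at a median of 29.0% to 31.3% of the MEC2 level, while PCL12 replicate 1 held them at 2.26% and 2.36%. For the genes followed, both values are given where leaving these libraries out changed a call. Genes of the other lists are given with all libraries only. Reads were present for 7 of 7 B cell markers in each group (summed level 5000.1 to 8525 CPM, normalised counts scaled to a common library size), whereas 6 T and NK cell markers summed to at most 12.6 CPM, 6 myeloid markers to at most 8.45 CPM and 5 erythroid markers to at most 0.271 CPM, with HBB at 0 in all libraries. In bulk RNA, fewer cells of a type and less RNA per cell cannot be told apart.

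The promoter sequences of the group are shown first because TNFAIP3 is a textbook NF-κB target. RefSeq (GRCh38.p14) gave 16 windows of 250 bases before annotated starts for the 8 genes, and both strands were searched for the NF-κB consensus of 10 bases. The consensus was found in 5 of the 16 windows, which belonged to 4 of the 8 genes (TNFAIP3, TNIP1, TNIP3 and CYLD), compared with 9.96% of all 35116 windows and 11.8% of all genes. The form most frequent among these matches, GGGACTTTCC, stood in 3 windows, those of TNFAIP3, TNIP1 and CYLD, and in 0.179% of all windows. It was picked from the members' own windows, so its count is a description, and each such match is also a match of the consensus. Below, capitals mark the matches, all sequences are given on the strand of the gene, and stretches annotated as exons by GENCODE were left out except around the site of TNIP1. A match describes the letters of the window and is not evidence of binding.
TNFAIP3 (chr6:137867009-137867213, + strand, outside annotated exons): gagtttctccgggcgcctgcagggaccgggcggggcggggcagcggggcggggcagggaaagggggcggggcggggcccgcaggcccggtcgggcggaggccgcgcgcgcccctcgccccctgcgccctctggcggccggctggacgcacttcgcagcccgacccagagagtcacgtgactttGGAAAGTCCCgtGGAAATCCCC
TNIP1 (chr5:151081057-151081086, - strand, the match lies in an exon of longer transcripts): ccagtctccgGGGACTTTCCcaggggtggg
TNIP3 (chr4:121227526-121227555, - strand, outside annotated exons): tcttaaaaaaGGGGTTTCCCtgtgtatggg
CYLD (chr16:50741836-50742049, + strand, outside annotated exons): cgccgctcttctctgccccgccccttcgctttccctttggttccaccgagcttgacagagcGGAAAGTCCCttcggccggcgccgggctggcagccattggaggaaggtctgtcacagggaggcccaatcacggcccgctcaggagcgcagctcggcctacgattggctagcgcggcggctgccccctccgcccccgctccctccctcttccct
TNFAIP2 (chr14:103123211-103123436, + strand, inside the gene span and outside annotated exons): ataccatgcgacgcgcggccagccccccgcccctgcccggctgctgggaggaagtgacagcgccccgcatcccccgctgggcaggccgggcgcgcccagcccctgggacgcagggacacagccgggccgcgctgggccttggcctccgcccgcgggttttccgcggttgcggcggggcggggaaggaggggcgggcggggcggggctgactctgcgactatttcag
The TNFAIP3 stretch held 2 adjacent matches, at 67 to 58 and 55 to 46 bases before the RefSeq start, both on the opposite strand, where they read GGGACTTTCC and GGGGATTTCC. In TNIP1 the match lay 42 to 33 bases before the start on the strand of the gene, and in CYLD it lay 189 to 180 bases before the start on the opposite strand. No match was found in the window of TNFAIP2, nor in those of TNIP2, TAX1BP1 and TNFAIP8. The TNFAIP2 window lies inside the gene span, and the bases before the GENCODE start (chr14:103121476) were not searched.

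**Figure D1:**
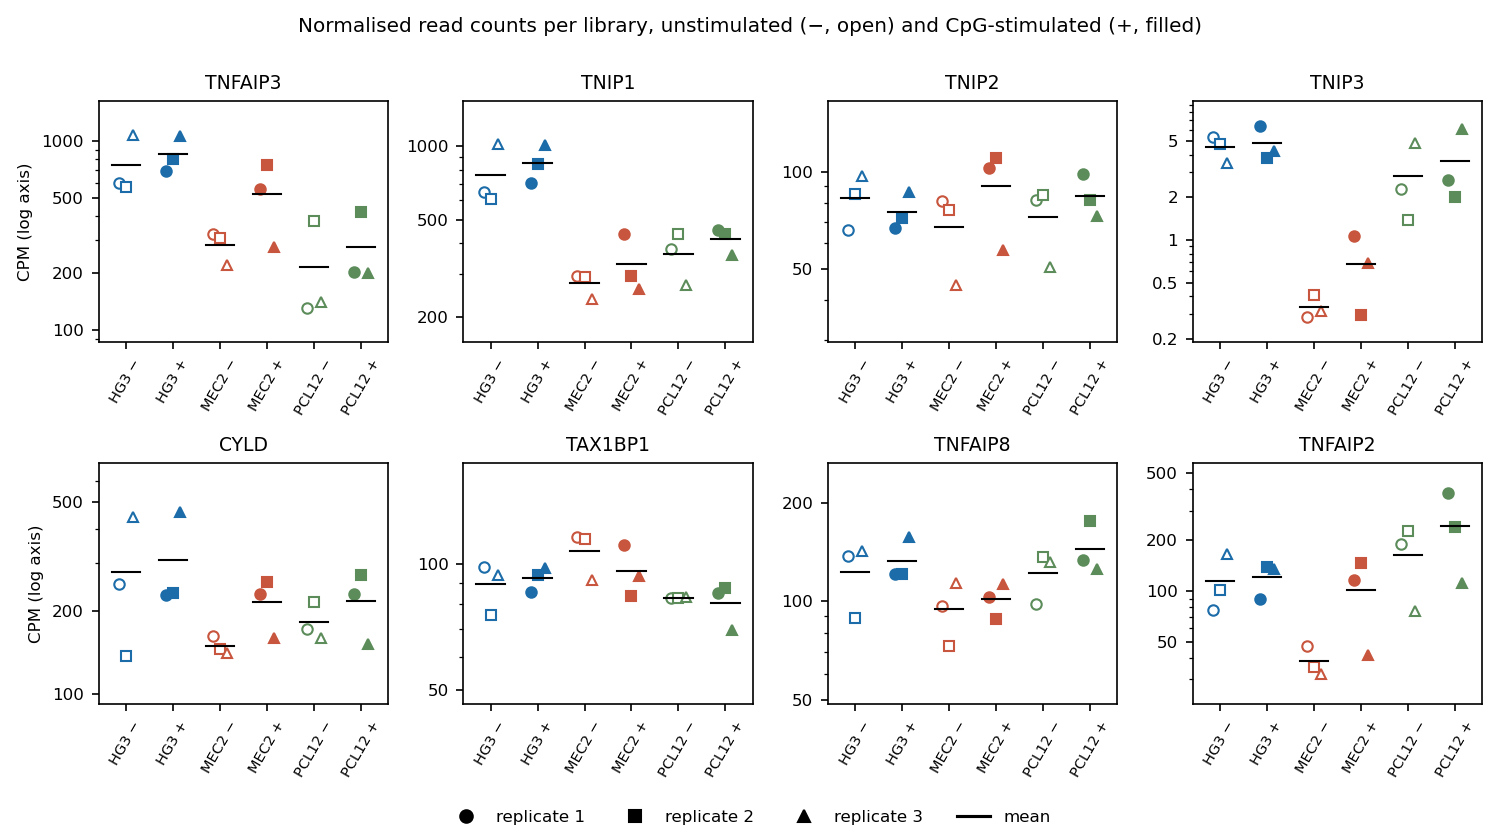
Normalised read counts (CPM, log axis) of the 8 genes in each of the 18 libraries, with open symbols for unstimulated and filled symbols for CpG-stimulated cells, marker shapes for replicates 1 to 3 and a line at the mean of 3. In every gene and line the CpG-stimulated and unstimulated libraries overlap, and TNFAIP3 and TNIP1 stand higher in the unstimulated HG3 libraries than in those of MEC2 and PCL12.

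After CpG, none of the 8 genes met the definition of a differentially expressed gene (DEG, nominal P value under 0.01 and |Log2FC| of at least 1) in any line in the fit without replicate pairs, while 0.496%, 0.251% and 0.116% of tested genes did so (HG3, MEC2 and PCL12). With the pairs as a block, TNFAIP2 met it in MEC2. The largest fitted Log2FC values were those of TNFAIP2 (1.41), TNIP3 (1.01, at very low counts, and 0.51 without CpG-stimulated MEC2 replicate 1) and TNFAIP3 (0.89), all in MEC2. At a nominal P value under 0.05, 2 of 8 genes, TNFAIP2 and TNFAIP3, were higher in MEC2 (1.51% of tested genes), against 0 of 8 in HG3 (1.58%) and 0 of 8 in PCL12 (1.37%). The fitted Log2FC was above 0 for 7 of 8 genes in each line, and the share over all tested genes was 47.1%, 47.2% and 52.1% for HG3, MEC2 and PCL12. The median Log2FC of the 8 genes was 0.10, 0.48 and 0.25 in the same order, whereas the median over all tested genes was 0 in HG3 and MEC2 and 0.02 in PCL12. The 24 combinations of gene and line all had overlapping CpG-stimulated and unstimulated libraries (3.72%, 4.72% and 4.55% of tested genes did not overlap in HG3, MEC2 and PCL12). With 3 against 3 libraries an exact two-sided permutation test cannot give a p below 0.1, and the lowest value among the 24 was 0.2.

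TNFAIP3 (chr6:137867214-137883314, + strand, protein-coding) had 694, 798 and 1061 CPM in the CpG-stimulated HG3 replicates 1, 2 and 3, and 602, 570 and 1079 CPM in the unstimulated ones. In MEC2 the levels were 555, 744 and 274 CPM with CpG and 323, 307 and 220 CPM without. In PCL12 they were 203, 420 and 201 CPM with CpG and 131, 376 and 142 CPM without. In MEC2 and PCL12 each stimulated library exceeded its own unstimulated control, but in each line the lowest stimulated library was below the highest unstimulated one. The Log2FC was 0.18 in HG3, 0.89 in MEC2 and 0.35 in PCL12 (SE 0.41 and adjusted p = 1 in each, edgeR). With the replicate pairs as a block the MEC2 value was 0.79 (SE 0.21) with an adjusted p of 0.0555 in edgeR, and the PCL12 value was 0.43 (adjusted p = 1). Without CpG-stimulated MEC2 replicate 2, the library rich in mitochondrial reads, the MEC2 Log2FC was 0.55, and without CpG-stimulated MEC2 replicate 3 it was 1.20. Averaged over the 3 lines, TNFAIP3 had a Log2FC of 0.47 (SE 0.24, adjusted p = 1.00, edgeR), and with the block 0.48 (SE 0.12, adjusted p = 0.0188 in edgeR and 0.0582 in limma-voom with the same block). With PCL12 replicate 1 as the only PCL12 pair the PCL12 Log2FC was 0.63 (adjusted p = 1, edgeR).

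None of the ABIN genes passed the test after CpG in any line, and TNIP3 in MEC2 was close to the lower limit of counting. TNIP1 (chr5:151029945-151093577, - strand), which encodes the A20 partner ABIN1, had 706, 843 and 1012 CPM in CpG-stimulated and 652, 606 and 1020 CPM in unstimulated HG3. Its levels in MEC2 were 435, 295 and 260 CPM with CpG and 294, 292 and 237 CPM without, and in PCL12 they were 451, 437 and 358 CPM with CpG and 379, 436 and 271 CPM without. The log2 ratio of the pairs ran from -0.01 in HG3 replicate 3 to 0.56 in MEC2 replicate 1, with Log2FC of 0.17, 0.27 and 0.20 in HG3, MEC2 and PCL12 (SE 0.26 in each, adjusted p = 1, edgeR). With 1 library left out these ran from 0.029 to 0.44, from 0.017 (without CpG-stimulated replicate 1) to 0.41 and from 0.016 to 0.36. TNIP2 (chr4:2741648-2756342, - strand), whose product also holds the kinase TPL2 in its complex with NF-κB p105, ranged from 44.4 to 110 CPM over the 18 libraries. The Log2FC of TNIP2 was -0.14, 0.42 and 0.22 in HG3, MEC2 and PCL12, and all 3 MEC2 pairs were higher after CpG. With 1 library left out the Log2FC ran from -0.27 to -0.010, from 0.20 to 0.66 and from 0.0065 to 0.35. TNIP3 (chr4:121131408-121227466, - strand), an inducible member of the family, had 6.36, 3.81 and 4.26 CPM in CpG-stimulated and 5.34, 4.75 and 3.47 CPM in unstimulated HG3. In MEC2 only 36, 12 and 14 reads were counted with CpG and 10, 10 and 11 without, and the Log2FC of 1.01 (SE 0.63, adjusted p = 1, edgeR) did not pass the test.

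CYLD (chr16:50742050-50801935, + strand), which removes linear and other non-degradative ubiquitin chains, had 232, 257 and 160 CPM in CpG-stimulated and 162, 146 and 142 CPM in unstimulated MEC2. In that line only CpG-stimulated replicate 3 fell within the unstimulated range. Its Log2FC in MEC2 was 0.53 (SE 0.33) and with the block 0.50 (SE 0.21, adjusted p = 0.926, edgeR). In HG3 the level of CYLD depended more on the replicate than on CpG, from 138 CPM in unstimulated replicate 2 to 443 CPM in unstimulated replicate 3. TAX1BP1 (chr7:27739331-27844564, + strand), an A20 adaptor that is also an autophagy receptor, varied little, with 69.7 to 115 CPM over the 18 libraries and Log2FC of 0.05, -0.16 and -0.04 in HG3, MEC2 and PCL12. TNFAIP8 (chr5:119268692-119399688, + strand), a lipid-binding protein linked to cell survival, ranged from 73.0 to 176 CPM and had Log2FC of 0.12, 0.10 and 0.24.

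TNFAIP2 (chr14:103121476-103137439, + strand), a TNF-induced protein known for membrane tube formation, had the largest fitted Log2FC of the group, in MEC2. In MEC2 it had 116, 146 and 41.9 CPM with CpG and 47.0, 35.6 and 32.0 CPM without. In PCL12 it had 381, 240 and 111 CPM with CpG and 190, 226 and 75.7 CPM without, and in HG3 89.2, 139 and 134 CPM with CpG and 76.8, 101 and 166 CPM without. In MEC2 replicates 1 and 2 the stimulated level was far above all 3 controls, while stimulated replicate 3 lay between unstimulated replicates 1 and 2. The Log2FC in MEC2 was 1.41 (SE 0.49, adjusted p = 1, edgeR), and with the replicate block 1.25 (SE 0.21, adjusted p = 1.33e-05 in edgeR and 0.182 in limma-voom with the same block). The log2 ratios of the 3 MEC2 pairs had a mean of 1.23 and an SD of 0.82. Without CpG-stimulated MEC2 replicate 2, the library rich in mitochondrial reads, the Log2FC was 1.05 and without stimulated replicate 3 it was 1.78. In PCL12 the Log2FC was 0.57 (SE 0.48) and with the block 0.55 (adjusted p = 1, edgeR), and in HG3 it was 0.07 (SE 0.48). The PCL12 value was 1.00 with PCL12 replicate 1 only, 0.09 without CpG-stimulated PCL12 replicate 1, 0.22 without unstimulated replicate 3 and 0.92 without CpG-stimulated replicate 3. Averaged over the lines it was 0.68 (SE 0.28, adjusted p = 1.00), and with the block 0.64 (SE 0.12, adjusted p = 0.000113 in edgeR and 0.112 in limma-voom with the same block).

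In edgeR with the replicate block, 1 of 8 genes (TNFAIP2) passed an adjusted p of 0.05 in MEC2, where 0.333% of tested genes did, and 0 of 8 did so in HG3 (0.135%) and in PCL12 (0.0471%). In the average over the lines 2 of 8 (TNFAIP3 and TNFAIP2) did so, against 0.555% of tested genes. Limma-voom with the same block kept neither call. Replicate 2 of HG3 and MEC2, the pairs that each hold a library rich in mitochondrial reads, was then left out in both treatments, an alternative chosen after seeing the data. With the block the MEC2 Log2FC was then 0.86 for TNFAIP2 (adjusted p = 4.52e-06) and 0.56 for TNFAIP3 (adjusted p = 0.00273), and in PCL12, whose libraries were the same, the adjusted p was 0.00114 and 0.00597 (edgeR). The mean over the lines was 0.46 for TNFAIP2 and 0.36 for TNFAIP3. These PCL12 calls were absent with all libraries. Since no PCL12 library was left out, they reflect the spread, which is estimated over all lines together, and not another PCL12 response. For the other members the mean Log2FC over the lines, without the block and with all libraries, was 0.48 for TNIP3, 0.31 for CYLD, 0.21 for TNIP1, 0.17 for TNIP2, 0.15 for TNFAIP8 and -0.05 for TAX1BP1, none of which passed in either fit. With 1 library left out these means ran, in the same order, from 0.28 to 0.68, 0.17 to 0.48, 0.13 to 0.30, 0.091 to 0.25, 0.097 to 0.21 and -0.088 to -0.012. With PCL12 replicate 1 as the only PCL12 pair, also chosen after seeing the data, the blocked mean kept an adjusted p under 0.05 for TNFAIP2 (0.80, adjusted p = 0.00213) and not for TNFAIP3 (adjusted p = 0.304). In MEC2, replicates 1 and 2 correlated better with each other's controls (r = 0.362 and 0.330) than with their own (0.105 and -0.0354), so the blocked MEC2 values rest on the pairing given by the series' design. The block leaves 6 residual degrees of freedom, whereas the fit without it leaves 12. Within lines, the SE of the blocked edgeR fit was nearly the same for all members but TNIP3, from 0.204 to 0.2125. The SD of the MEC2 pair ratios, however, was 0.14 for TNFAIP8 and 0.82 for TNFAIP2. P-values of the blocked edgeR fit therefore rest mainly on a spread shared over genes and not on each gene's own pairs.

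**Figure D2:**
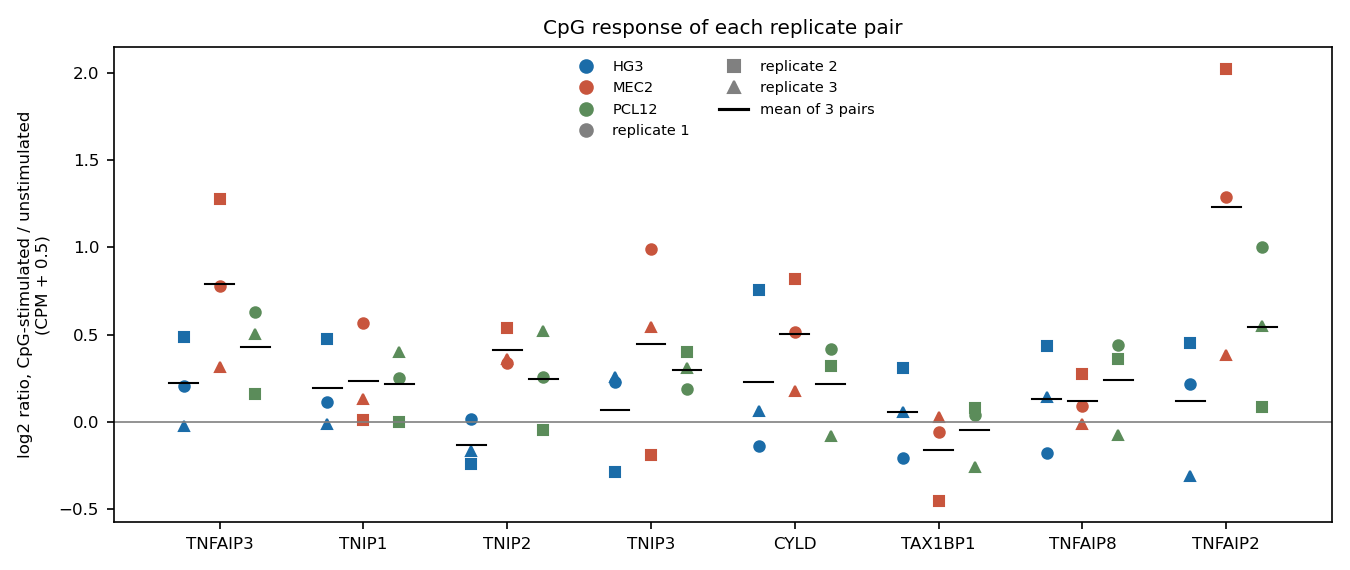
The CpG response of each replicate pair as the log2 of stimulated over unstimulated CPM (offset 0.5 CPM), for 8 genes and 3 lines, with a line at the mean of 3 pairs. The MEC2 pairs of TNFAIP2 lie at 1.29, 2.02 and 0.38, and the pairs of TAX1BP1 lie on both sides of 0.

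The replicate pairs gave a second view of the same libraries. TNFAIP3, TNIP1 and TNFAIP2 were each higher after CpG in 8 of 9 pairs, CYLD in 7, TNIP3 in 7, TNIP2 and TNFAIP8 in 6 and TAX1BP1 in 5. The exception was HG3 replicate 3 for TNFAIP3 (log2 ratio -0.02), TNIP1 (-0.01) and TNFAIP2 (-0.31). An exact two-sided sign-flip permutation test over the 9 pairs gave p = 0.00781 for TNFAIP3, 0.0117 for TNIP1, 0.0195 for TNFAIP2 and 0.0313 for CYLD, where 0.00391 is the smallest value it can give. These were 4 of 8 genes, compared with 2.62% of tested genes that passed in the same direction, and the p of CYLD rose to 0.0625 with 1 pair left out. None passed after Benjamini-Hochberg adjustment (adjusted p of 0.808 or more for the 8 genes, 0 of 31872 genes in all). Without PCL12 replicates 2 and 3, the 7 remaining pairs gave p = 0.0313, 0.0313, 0.0469 and 0.0469 for TNFAIP3, TNIP1, TNFAIP2 and CYLD in the same exact test.

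The TNFAIP2 and TNFAIP3 responses ran in parallel from pair to pair. Over the 9 pairs, the log2 ratio of TNFAIP2 had the highest Pearson correlation with that of TNFAIP3 among the 9306 genes whose mean level reached 10 CPM (r = 0.989), and the order of the 9 pairs was identical for both genes (Spearman rho = 1). It was 0.967 without the MEC2 pairs (n = 6) and 0.961 without the pairs MEC2 replicate 2 and HG3 replicate 3, the farthest from the median (n = 7). The next genes were PIK3CD (0.959), PLXNA1 (0.957), MYO1C (0.953) and ZBTB7A (0.947). For the other members the correlation with TNFAIP3 was 0.696 for CYLD, 0.673 for TNIP2, 0.266 for TNIP1, 0.245 for TNFAIP8 and -0.544 for TAX1BP1, while TNIP3 was below the level required. Both ratios of a point come from the same pair of libraries, and the values are a description without a test.

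**Figure D3:**
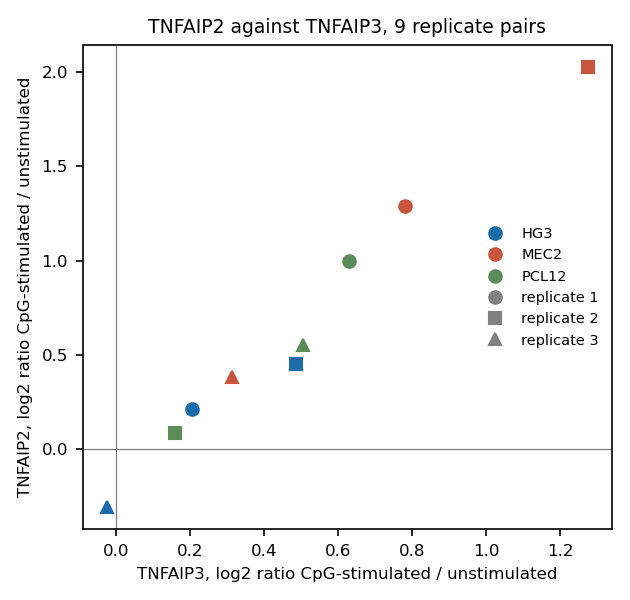
The CpG response of TNFAIP2 against that of TNFAIP3, each as the log2 of stimulated over unstimulated CPM, 1 point for each of 9 replicate pairs, with colour for the line and shape for the replicate. The points keep 1 order on both axes, from HG3 replicate 3 at the lower left to MEC2 replicate 2 at the upper right.

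The absolute levels of both genes did not run in parallel. Over the 18 libraries the log2 CPM of TNFAIP2 and TNFAIP3 had r = 0.150, against 0.748 for TNIP1, 0.717 for CYLD, 0.435 for TNIP2, 0.247 for TAX1BP1 and 0.168 for TNFAIP8 with TNFAIP3, and PCL12 had the highest mean of TNFAIP2 and the lowest mean of TNFAIP3. This r mixes differences between and within lines, and r of TNFAIP2 within lines was not computed. In MEC2, CpG-stimulated replicates 2 and 1 were highest for both genes (744 and 555 CPM of TNFAIP3, 146 and 116 CPM of TNFAIP2). In HG3, unstimulated replicate 3 was highest for both. In PCL12 the highest library was CpG-stimulated replicate 2 for TNFAIP3 and replicate 1 for TNFAIP2. The 5 genes whose levels were most like those of TNFAIP3 over the 18 libraries were NFKBIE (r = 0.962), an inhibitor of NF-κB, TFEB (0.955), SLAMF1 (0.954), TMEM63B (0.944) and CD274 (0.940). The 18 points share their lines and libraries, and within lines (6 libraries each) r of these 5 genes lay between 0.842 and 0.987.

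The response of the 8 genes was set beside that of 24 feedback and target genes of NF-κB and 20 genes of A20 partners and the ubiquitin chain machinery. In MEC2, 3 of the 24 NF-κB genes were DEGs, all upregulated: NFKBIZ, which encodes the nuclear inhibitor-like protein IκBζ (Log2FC 2.20), ZC3H12A, an RNase that degrades cytokine mRNA (1.82), and NFKB2, a subunit precursor (1.12). In PCL12, 2 of 24 were DEGs (NFKBIZ 1.71, ZC3H12A 1.43) and in HG3 0 of 24. Among the 20 partner genes, 0 were DEGs in any line, and also 0 had a nominal P value under 0.05 in either direction. Over all tested genes, 0.496%, 0.251% and 0.116% were DEGs in HG3, MEC2 and PCL12. At a nominal P value under 0.05, 1.58%, 1.51% and 1.37% were higher, and for 20 genes a count of 0 is near these shares. The median Log2FC of the NF-κB genes was 0.17, 0.87 and 0.48 in HG3, MEC2 and PCL12, that of the partner genes 0.04, 0.01 and -0.02. With the replicate block, 11 of the 24 NF-κB genes had an adjusted p under 0.05 in MEC2 and 4 in PCL12, all of them higher after CpG (edgeR), against 0 of the 20 partner genes and 0.333% and 0.0471% of all tested genes. The MEC2 genes beside the 3 DEGs were the NF-κB subunit genes REL (0.87) and RELB (0.84), the adaptor TRAF1 (0.97), the surface proteins CD83 (0.97), CD40 (0.88) and ICAM1 (0.92), BCL3 (0.91) and TNF (0.82), and those in PCL12 beside NFKBIZ and ZC3H12A were CD83 (0.91) and TNF (0.89). In the blocked mean over the lines 14 of 24 passed (0.555% of all tested genes), all of them higher, among them 4 that passed in no single line: NFKB1 (0.46), BIRC3 (0.48), CFLAR (0.46) and CCL22 (0.45). Without the block, 1 of 24 had an adjusted p under 0.05 in MEC2 (NFKBIZ, 0.0154), 0 in PCL12 and 2 in the mean (NFKBIZ and ZC3H12A, edgeR). The adjusted p of NFKBIZ in PCL12, a DEG there, was 0.541 in that fit. Limma-voom with the block is not given for these lists. Both lists were compiled with earlier results of these data known, and IL6, with 0 reads in the unstimulated MEC2 and PCL12 libraries, has no usable fold change (medians without it 0.17, 0.83 and 0.47).

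**Figure D4:**
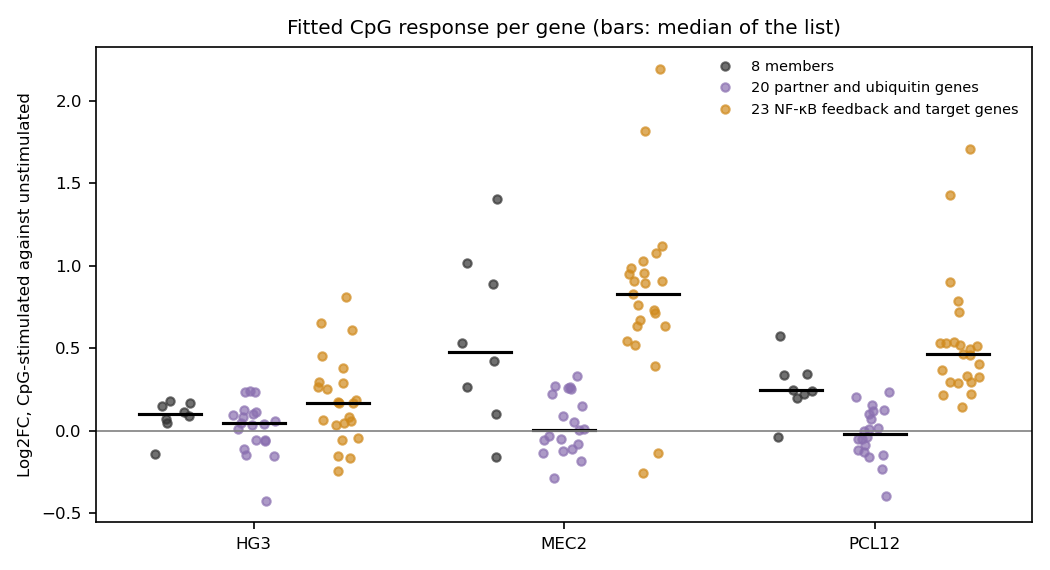
Log2FC after CpG (fit without block) of 8 members, 20 partner and ubiquitin genes and 23 NF-κB feedback and target genes in each line, 1 point for each gene, with a line at the median of the points drawn. IL6 is not drawn because it had 0 reads in the unstimulated groups of MEC2 and PCL12, and the partner genes lie around 0 in all 3 lines.

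Whether the response to CpG differed between the lines was tested as a difference of the Log2FC values. For TNFAIP2 the MEC2 response exceeded that of HG3 by 1.33 on the log2 scale (SE 0.69, adjusted p = 1.00, edgeR), and with the block by 1.12 (SE 0.29, adjusted p = 0.0781). The TNFAIP3 response in MEC2 exceeded that in HG3 by 0.71 (SE 0.58) and with the block by 0.57 (SE 0.30, adjusted p = 1, edgeR). Without the block it was 0.35 without CpG-stimulated MEC2 replicate 2. With the block and without replicate 2 of HG3 and MEC2, the TNFAIP2 difference was 0.90 (adjusted p = 0.00815). None of the 8 genes passed an adjusted p of 0.05 in any of the 3 differences when all libraries were used, with or without the block. The other 6 members differed between MEC2 and HG3 by -0.21 (TAX1BP1) to 0.93 (TNIP3). Over the 8 members the difference ran from -0.09 (TAX1BP1) to 0.50 (TNFAIP2) between PCL12 and HG3 and from -0.14 (TNFAIP8) to 0.83 (TNFAIP2) between MEC2 and PCL12. The share of tested genes that passed was 0.0%, 0.00314% and 0.0% without the block for MEC2 against HG3, PCL12 against HG3 and MEC2 against PCL12. With the block it was 0.141% for MEC2 against HG3, 0.069% for PCL12 against HG3 and 0.0126% for MEC2 against PCL12.

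The lines differed more clearly before stimulation. Unstimulated HG3 held more TNFAIP3 than the other lines: its 570 to 1079 CPM lay above the 220 to 323 CPM of MEC2 and the 131 to 376 CPM of PCL12, without overlap. TNFAIP3 was 2.65-fold lower in MEC2 (Log2FC -1.40, SE 0.42, adjusted p = 0.0347) and 3.47-fold lower in PCL12 (-1.80, SE 0.42, adjusted p = 0.00727, edgeR). The MEC2 call was lost with library totals in place of TMM factors (-1.28, adjusted p = 0.0585) and when any of 5 of the 6 libraries compared was left out (adjusted p of 0.0624 to 0.161), all but unstimulated HG3 replicate 1. Without unstimulated HG3 replicate 3 it was -1.05. The PCL12 value was -2.50 (adjusted p = 0.0067) with PCL12 replicate 1 alone. MEC2 and PCL12 differed by 0.39 (SE 0.41, adjusted p = 0.794), and their ranges overlapped. That difference ran from 0.13 to 1.07 with 1 library left out and was 1.09 with PCL12 replicate 1 alone.

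TNIP1 followed the same order between HG3 and the others, with 606 to 1020 CPM in unstimulated HG3, 237 to 294 CPM in MEC2 and 271 to 436 CPM in PCL12. It was 2.77-fold lower in MEC2 than in HG3 (Log2FC -1.47, SE 0.27, adjusted p = 0.000374, edgeR), a call that held with every library left out. In PCL12 it was 2.10-fold lower (-1.07, SE 0.27, adjusted p = 0.00827), but the adjusted p was 0.0755 without unstimulated HG3 replicate 3 and 0.0705 without unstimulated PCL12 replicate 3. The Log2FC ran from -1.22 to -0.80 with 1 library left out. In the other settings it ran from -1.10 to -0.90, among them PCL12 replicate 1 alone, which leaves 1 library in that group. TNIP3 was 13.4-fold lower in MEC2 than in HG3 (-3.74, SE 0.66, adjusted p = 0.000248) and 8.42-fold lower than in PCL12 (-3.07, SE 0.64, adjusted p = 0.00667). Its unstimulated levels were 5.34, 4.75 and 3.47 CPM in HG3, 0.287, 0.408 and 0.313 CPM in MEC2 and 2.28, 1.39 and 4.83 CPM in PCL12. The MEC2 levels stood above the floor of 3 reads, which is 0.0855 to 0.122 CPM in these libraries, and below all libraries of the other lines. The difference between MEC2 and PCL12 lost its call with PCL12 replicate 1 alone (-2.78, adjusted p = 0.0783), without unstimulated MEC2 replicate 1 (adjusted p = 0.0606) and without unstimulated PCL12 replicate 3 (adjusted p = 0.0506).

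TNFAIP2 had another order. Unstimulated MEC2 held 32.0 to 47.0 CPM, below the 76.8 to 166 CPM of HG3 and the 75.7 to 226 CPM of PCL12. It was 4.30-fold lower in MEC2 than in PCL12 (Log2FC -2.10, SE 0.50, adjusted p = 0.0372, edgeR), a call lost when any of 5 of the 6 libraries compared was left out, all but unstimulated PCL12 replicate 3 (adjusted p of 0.106 to 0.172), and with limma-voom (adjusted p = 0.0574). The Log2FC itself stayed between -2.46 and -1.80 with 1 library left out. Against HG3 the value was -1.59 (SE 0.50, adjusted p = 0.0526), and the adjusted p was under 0.05 with DESeq2 (0.00448), RLE scaling (0.0496), filterByExpr (0.0252), no filter (5.69e-07) and without unstimulated HG3 replicate 1 (0.0471). After CpG the MEC2 mean of 101 ± 53.6 CPM (SD, n = 3) came within the range of unstimulated HG3, whose mean was 115 ± 46.3 CPM (SD, n = 3). Stimulated MEC2 replicates 1 and 2 (116 and 146 CPM) lay in that range, and replicate 3 (41.9 CPM) lay below it and within the unstimulated MEC2 range.

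In all, 3 of 8 genes were lower in MEC2 than in HG3 at an adjusted p under 0.05 (9.78% of tested genes in either direction, 4.97% lower). In PCL12 2 of 8 were lower than in HG3 (9.44%, 4.57% lower), and 2 of 8 were lower in MEC2 than in PCL12 (2.05%, 1.53% lower). The median log2 difference of the 8 genes was -1.15 between MEC2 and HG3 and -0.40 between PCL12 and HG3, whereas the median over all tested genes was 0 in both. CYLD was -0.89 in MEC2 against HG3 (adjusted p = 0.0989, and 0.0157 with no filter). Without unstimulated HG3 replicate 2, the library rich in mitochondrial reads, it was -1.19 (adjusted p = 0.00991), and without unstimulated HG3 replicate 3 it was -0.38 (adjusted p = 0.506, edgeR). TNIP2, TAX1BP1 and TNFAIP8 lay between -0.38 and 0.26 in both comparisons with HG3. In PCL12 against HG3, TNFAIP2 was 0.52, CYLD -0.60 and TNIP3 -0.67 (adjusted p = 0.582, 0.293 and 0.529, edgeR). With 1 library left out they ran from 0.23 to 0.88, from -0.89 to -0.09 (without unstimulated HG3 replicate 3) and from -1.29 to -0.36. The members not yet given for MEC2 against PCL12 lay between -0.40 (TNIP1) and 0.37 (TAX1BP1), none of which passed. Of the 24 NF-κB feedback and target genes, 10 were lower and 0 higher in MEC2 than in HG3, with a median of -0.96, and 8 were lower and 1, the chemokine gene CCL22, higher in PCL12. Of the 20 partner genes, OPTN was lower (-1.82) and RNF31 (1.06) and RIPK3 (2.41) were higher in MEC2 than in HG3. In PCL12, RIPK1 was lower (-1.62) and RNF31 (1.23), CASP8 (0.82) and RIPK3 (3.05) were higher than in HG3, and these partner genes and CCL22 were named after their values were seen. Scaling by library totals moved the median of all genes by 0.11 and 0.15 toward MEC2 and PCL12 in the comparisons with HG3, by which the PCL12 values of TAX1BP1 and TNFAIP8 turned from -0.11 and -0.01 to 0.05 and 0.15.

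**Figure D5:**
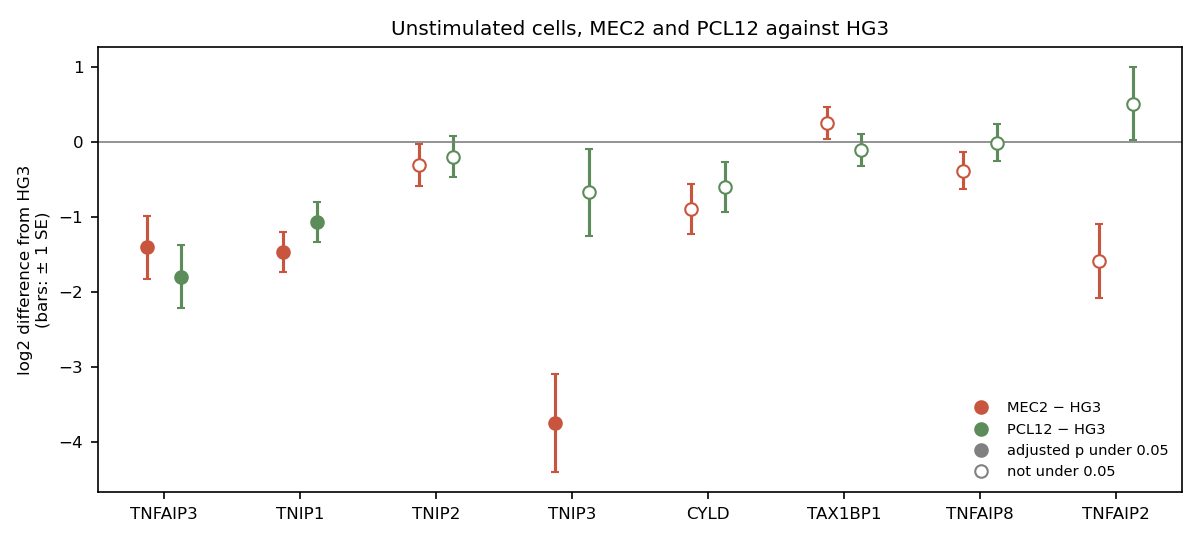
The log2 difference of unstimulated MEC2 and PCL12 from unstimulated HG3 for each of the 8 genes, with bars of 1 SE, filled where the adjusted p is under 0.05. The filled points are TNFAIP3 and TNIP1 in both lines and TNIP3 in MEC2.

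Over the 6 groups the mean level of TNFAIP3 ran from CpG-stimulated HG3 (851 ± 189 CPM, SD, n = 3) through unstimulated HG3 (750.3 ± 285), CpG-stimulated MEC2 (524 ± 237), unstimulated MEC2 (283 ± 55.3) and CpG-stimulated PCL12 (275 ± 126) to unstimulated PCL12 (216 ± 139), and each neighbouring pair in this order overlapped. For TNIP1 the only gap between neighbours was that between unstimulated HG3 and CpG-stimulated PCL12 (415 ± 50.1 CPM). For TNIP3 it was that between unstimulated PCL12 (2.83 ± 1.79 CPM) and CpG-stimulated MEC2 (0.681 ± 0.384 CPM). The other 5 genes had no gap between neighbouring groups.

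Genes that overlap the members on the annotation added little: JAZF1, which overlaps TAX1BP1 on the opposite strand, had 664 reads over all libraries against 57307 of TAX1BP1, and the other counted neighbours had at most 48. The library protocol is described as stranded, but the strand setting of the counting is not given in the sources used here, and reads of TNFAIP3, TNIP1, CYLD, TAX1BP1 and TNFAIP2 cannot be separated from those of antisense transcripts that the table does not list.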

How the data were processed

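RNA was sequenced on a NovaSeq as single reads of 100 nt from 18 libraries. The authors deposited raw counts per gene symbol, aligned to hg38. The submitters' processing notes name FastQC, MultiQC, Trimmomatic, STAR and featureCounts, and versions, annotation release and the strand setting of the counting are not given in the sources used here. The labels name a stranded Lexogen QuantSeq kit, and the study's methods a stranded reverse library without the kit.

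Genes with at least 10 reads summed over the libraries were tested with edgeR 4.0.16 (R 4.3.3) by the quasi-likelihood test with TMM factors and 1 mean for each of 6 groups (12 residual degrees of freedom), and p-values were adjusted by Benjamini-Hochberg over 31872 genes. Fold changes are relative to these factors. A second fit had the replicate pair as a block, since each replicate series holds a stimulated sample and its control. Deviations from group means correlated within pairs at 0.243, 0.194 and 0.458 for the HG3 pairs, at 0.105, -0.0354 and 0.539 for MEC2 pairs and at 0.354 to 0.443 for PCL12 pairs. Alternatives were DESeq2 1.42.0, limma-voom 3.58.1, other scalings and filters, and libraries left out. CPM used TMM library sizes, and log2 ratios an offset of 0.5 CPM. Statistical code was tested on simulated data, in which edgeR with the block, limma-voom without it and DESeq2 called some genes in a line simulated without change, and edgeR without the block and limma-voom with it called none. Promoters came from RefSeq GRCh38.p14 and gene positions from GENCODE 44 (hg38).

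All 8 members were followed in every comparison between groups, some of them given by their range. Genes of the other lists were named where they were DEGs after CpG or had an adjusted p under 0.05 there in either fit, and genes like TNFAIP3 as the 5 with the highest correlation. The members and lists were chosen with earlier results of these data known.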

Additional observations from a re-analysis of the deposited data

How the results depend on the processing

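TNIP3 in MEC2 rested on 10 to 36 reads a library, and its Log2FC ran from 0.51 to 1.39 with 1 library left out. Members were counted as DEGs within a line and by an adjusted p under 0.05 for the mean, for differences and between unstimulated lines. The count changed by CpG in MEC2 was 0 as reported. It was 1 (TNFAIP2) in 8 of 12 other settings, among them DESeq2, the edgeR replicate block, limma-voom with the block, filterByExpr, no filter and MEC2 alone. It was 1 (TNIP3, Log2FC 1.53) with the block and without the mitochondria-rich pairs, and 0 to 2 with 1 library left out (2, TNFAIP3 and TNFAIP2, without CpG-stimulated replicate 3). For the mean over the lines it was 2 with the edgeR block, 0 with limma-voom and the block, 2 with the block and without the mitochondria-rich pairs, 1 with no filter and 1 with the block and PCL12 replicate 1 only, and for the difference of MEC2 and HG3 it was 1 with the block and without the mitochondria-rich pairs. The edgeR replicate block changed no other count of members. Without stimulation, MEC2 and HG3 differed in 5 members with no filter, 4 with DESeq2, RLE scaling or filterByExpr, 2 with library totals and 2 to 4 with a library left out (3 as reported). PCL12 and HG3 differed in 1 with PCL12 replicate 1 only and in 1 to 2 with a library left out, and MEC2 and PCL12 differed in 1 with limma-voom, 1 with PCL12 replicate 1 only and 0 to 1 with a library left out.

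Directions turned for values that did not pass the test. Without the mitochondria-rich pairs and with the block, the HG3 Log2FC was -0.025 for CYLD, -0.061 for TAX1BP1, -0.0058 for TNFAIP8 and -0.036 for TNFAIP2. TAX1BP1 in PCL12 was 0.045 with PCL12 replicate 1 only, with and without the block. Unstimulated PCL12 against HG3 was 0.0042 for TNIP2 with PCL12 replicate 1 only, 0.046 for TAX1BP1 and 0.15 for TNFAIP8 with library totals, and 0.0037 for TNFAIP8 with no filter. With 1 library left out, the HG3 Log2FC ran from -0.0076 to 0.54 for TNFAIP3, -0.16 to 0.23 for TNIP3, -0.26 to 0.66 for CYLD, -0.033 to 0.13 for TAX1BP1, -0.047 to 0.23 for TNFAIP8 and -0.13 to 0.44 for TNFAIP2. It ran from -0.051 to 0.26 for TNFAIP8 in MEC2, and in PCL12 from -0.11 to 1.02 for TNFAIP3, 0.088 to 0.92 for TNFAIP2, -0.27 to 0.95 for TNIP3 and -0.099 to 0.067 for TAX1BP1. The TNFAIP3 response differed by -0.30 to 0.83 between PCL12 and HG3 and -0.15 to 0.97 between MEC2 and PCL12, and kept its sign between MEC2 and HG3 (0.35 to 1.01). For TNFAIP2 these 3 ran from 0.0055 to 0.84, 0.46 to 1.30 and 0.95 to 1.70. Differences of other members turned as well. Between MEC2 and HG3 they ran from -0.17 to 0.24 for TNIP1 and -0.13 to 0.79 for CYLD. Between PCL12 and HG3 they ran from -0.24 to 0.18 for TNIP1, -0.36 to 0.86 for TNIP3, -0.41 to 0.51 for CYLD and -0.17 to 0.014 for TAX1BP1. With the block and all libraries the CYLD difference between PCL12 and HG3 was -0.0045. Unstimulated PCL12 against HG3 ran from -0.31 to 0.030 for TNIP2 and -0.17 to 0.13 for TNFAIP8, and MEC2 against PCL12 from -0.32 to 0.12 for TNIP2. The cause of these changes was not tested.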
